A study of Mus musculus with 6 samples.

Results

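Immediate early genes are transcribed within minutes of a stimulus, from transcription factors already present in the cell, and their messenger RNAs are usually short-lived. In liver they are known for their response to growth factors, feeding, cytokines, surgery and ischemia. Growth factor signals reach them through the ERK branch of the MAP kinase pathway and the transcription factor SRF, and glucagon through CREB. Many of their products are themselves transcription factors (AP-1, EGR, KLF and NR4A proteins), and others shut the signal off again (DUSP phosphatases, SOCS3, the RNA-decay protein encoded by Zfp36).

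The 33 genes described here are a list of such fast-response genes, matched by gene symbol. All 33 were found among the 22599 genes of the count table. With at least 10 counts as the edgeR minimum, 29 passed the filter on low counts, among 13205 genes in all. The other 4 were Fosl1, Egr2, Egr3 and Nr4a3, with at most 16 counts in any library.

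The libraries are bulk RNA sequencing of mouse liver. They form 2 groups, flox (mice with floxed NcoR1 alleles, labelled WT) and NcoR1ΔHep (labelled knockdown NcoR1, n = 3 each). NcoR1 is a corepressor that silences targets of nuclear receptors. Both groups carry 0 h in the titles and a label of liver ischemia-reperfusion, and the labels do not say whether these livers were operated on. They also give no age, no sex, no time of day and no Cre driver, and they do not say whether each library is 1 mouse, which leaves the p-values as a measure of library spread only, possibly technical. Where the deletion is limited to hepatocytes, as the name ΔHep implies, the other liver cells keep NcoR1.

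Libraries held 36975231 to 38470468 counts. Alb, the main secreted protein of hepatocytes, took 6.56% to 8.85% of them, and 13 mitochondrially encoded genes took 4.50% to 10.4%. Ncor1, the targeted gene, was at 6.78, 6.70 and 7.72 FPKM in flox 1 to 3 and at 5.34, 6.63 and 4.93 FPKM in NcoR1ΔHep 1 to 3. Its edgeR log2 fold change was -0.31 (SE 0.21, adjusted p = 0.931), so the loss of Ncor1 was not established in these gene totals. The library NcoR1ΔHep 1 stood apart in sex-linked transcripts, with 17138 Xist counts against 6 to 18 in the others and 20 counts over 4 Y-linked genes against at least 4174. Values without it are therefore given where they change a result.

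Promoters of the members are shown first, because CArG boxes (the binding site of SRF) and cAMP response elements are the sites through which this class of gene is known to be switched on. RefSeq promoters of build GRCm38.p6 (250 bases before and 50 after the start) were found for 26 members. None was found for Egr1, Egr3, Fosl1, Ier2, Klf10, Myc and Sik1, so these were not searched, nor were sites further from the start. A CArG box, CC and GG around a run of A and T, was searched on both strands. It was present in 4 of the 26 (15.4%: Egr2, Dusp5, Zfp36 and Srf), against 1.81% of all 27025 genes with such a promoter. The full cAMP response element TGACGTCA was in 3 (11.5%: Dusp1, Btg2 and Maff), against 2.03%, and its core TGACG, which the full element contains, was in 16 (61.5%), against 23.0%. The AP-1 site TGANTCA was in 0 of 26, against 8.97%. Among the 10548 genes with a promoter that passed the count filter, the shares were 1.55% for the CArG box, 3.35% for TGACGTCA, 34.3% for TGACG and 6.66% for TGANTCA. A match is a string of letters and not a measured binding site.

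The stretches below are 100 bases each, read in the direction of the gene, with the motif in capitals. Those of Srf (chr17:46556163-46556262, minus strand), Zfp36 (chr7:28379229-28379328, minus strand) and Dusp5 (chr19:53529045-53529144, plus strand) end 1 base before the start of the gene, with the CArG boxes in capitals. Srf and Dusp5 each hold 2 CArG boxes.
Srf: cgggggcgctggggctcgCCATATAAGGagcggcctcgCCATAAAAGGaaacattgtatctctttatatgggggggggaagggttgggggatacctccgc
Zfp36: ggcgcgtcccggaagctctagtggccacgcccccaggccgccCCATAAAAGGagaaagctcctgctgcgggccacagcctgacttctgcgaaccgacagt
Dusp5: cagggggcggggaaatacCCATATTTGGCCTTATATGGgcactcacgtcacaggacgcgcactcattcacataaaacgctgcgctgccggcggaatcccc
In those of Dusp1 (chr17:26508533-26508632, minus strand), Btg2 (chr1:134079236-134079335, minus strand) and Maff (chr15:79347420-79347519, plus strand, 1 of 3 annotated starts) the capitals mark TGACGTCA. In that of Fos (chr12:85473790-85473889, plus strand) they mark the core TGACG alone.
Dusp1: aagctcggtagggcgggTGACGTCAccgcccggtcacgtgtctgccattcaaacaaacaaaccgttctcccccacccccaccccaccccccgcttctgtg
Btg2: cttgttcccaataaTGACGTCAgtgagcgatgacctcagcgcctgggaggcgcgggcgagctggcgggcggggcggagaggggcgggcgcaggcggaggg
Maff: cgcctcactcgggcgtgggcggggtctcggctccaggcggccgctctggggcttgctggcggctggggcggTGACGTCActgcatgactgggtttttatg
Fos: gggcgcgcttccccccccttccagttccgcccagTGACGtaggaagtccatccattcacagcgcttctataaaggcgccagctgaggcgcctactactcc

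Most members had a compact gene, with 21 of 29 spanning under 10 kb (72.4%, against 23.1% of tested genes) and 24 having at most 4 exons (82.8%, against 19.5%). Spans are those of the annotated gene, over all its transcripts. Among the exceptions were Atf3 (47744 bp) and Sik1 (14 exons). Dusp1 had a span of 56539 bp by that measure, while the 1 transcript used here had 4 exons and 1990 bp. The 29 tested members had a median of 3 exons, counted in 1 GENCODE transcript per gene, and a median gene span of 5162 bp. Over 12184 tested genes with a model the medians were 9 exons and 24530 bp. The heptamer TATTTAT, the core of the AU-rich element that the Zfp36 protein binds, was in the 3' untranslated region of 17 of 29 members (58.6%), against 28.1% of tested genes. Per kilobase of that region it occurred 0.731 times in members and 0.287 times in tested genes. It occurred 4 times in Ier3 and 3 times each in Fosl2, Dusp1 and Zfp36 itself. The transcript used for Myc had only 3 bp of 3' untranslated region, too short to hold the heptamer, so Myc counts as a member without it.

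The first question was whether the members differed between the genotypes. No member did by the test used: 0 of 29 had an edgeR adjusted p under 0.05 (smallest 0.931), as for 0% of the 13205 genes tested. DESeq2 called 0 of the 33 members, against 0.0246% of its 20289 genes. At an unadjusted edgeR p under 0.05 there was 1 member, Sik1, which is 3.45% of the 29, against 3.35% of all genes. It was 1 higher and 0 lower in NcoR1ΔHep, against 1.43% and 1.92% of all genes, and DESeq2 also had 1 member at that level, against 3.02%. Of the 29, 20 had a higher level in NcoR1ΔHep (69.0%, against 53.5% of all genes), and their log2 fold changes had a median of 0.57 (quartiles -0.03 and 0.66), against 0.03 for all genes. That median was 0.07 without NcoR1ΔHep 2, 0.18 without flox 2, 0.36 without flox 1 and 0.91 without flox 3. In no member did the 3 libraries of one genotype lie above the 3 of the other, while 8.82% of all tested genes were separated in this way (3.29% higher and 5.53% lower in NcoR1ΔHep).

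Most members had a wide spread between libraries of the same genotype. The pooled SD within genotype, on log2(CPM + 1), where CPM is the count scaled to the library's effective size, had a median of 0.57 over the members (quartiles 0.47 and 0.85) and of 0.30 over all tested genes. Other lists had as wide a median spread or wider, among them other immediate early genes (0.61), clock genes (0.85), IL-6 and STAT3 genes (0.76) and CREB targets (0.67). Of the 29 members, 24 were above the median of all genes and 13 were above their 90th percentile (0.59). Fos, Myc, Egr1 and Jun were above the 99th percentile, with SDs of 1.78, 1.65, 1.63 and 1.29. An SD above 0.5 was found in 18 members (62.1%) and in 16.7% of tested genes. Klf4, Nr4a2, Btg1, Fosb and Srf were the 5 members below the median of all genes, and for Klf4, Nr4a2 and Fosb, all under 1 CPM, the added 1 compresses the spread. Without NcoR1ΔHep 1 the medians were 0.62 for the members and 0.24 for all genes.

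**Figure D1:**
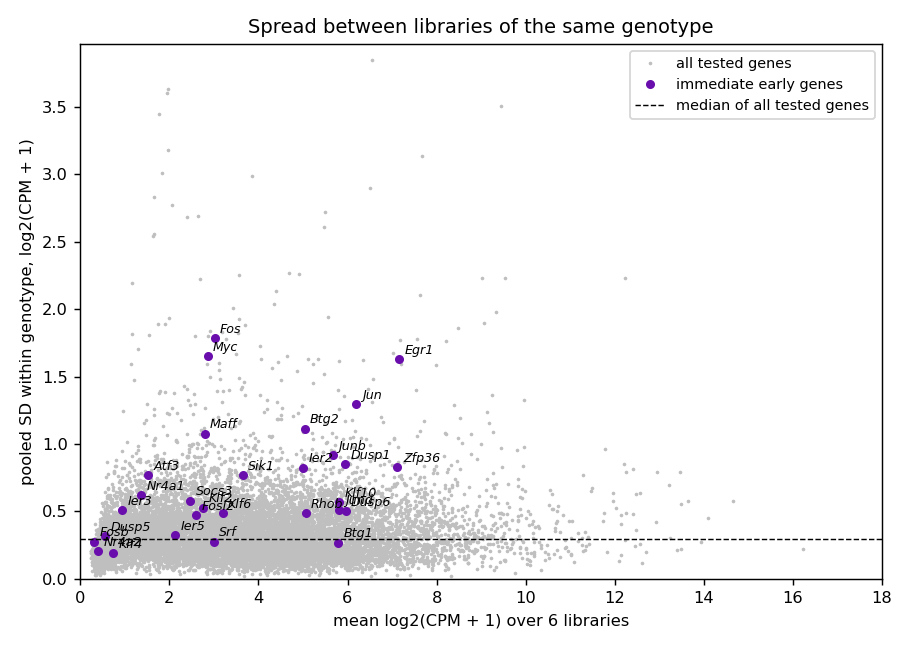
Pooled SD between libraries of the same genotype (vertical axis, log2(CPM + 1)) against the mean level over 6 libraries (horizontal axis, same scale) for all 13205 tested genes (grey) and 29 immediate early genes (purple). Fos, Myc, Egr1 and Jun sit far above the dashed median of 0.30, while Btg1 and Srf sit just under it.

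The spread followed the same libraries in most members. NcoR1ΔHep 2 held the highest value of 14 members and flox 2 the lowest of 18, against 11% and 14.5% of all tested genes. In 17 of the 29 members (58.6%) the 3 highest libraries were flox 3, NcoR1ΔHep 1 and NcoR1ΔHep 2, a set that crosses the genotypes and was the top set in 16.0% of all genes. Among the flox libraries alone, 25 members (and 53.7% of all genes) were higher in flox 3 than in flox 2. The median log2 ratio, taken on CPM + 1, was 1.09 over all 29. In 16 members, and in 2.05% of all genes, flox 3 was more than 2-fold higher on CPM + 1, a scale that lowers the ratios of scarce genes. Among NcoR1ΔHep libraries, 23 members (and 51.7% of all genes) were higher in NcoR1ΔHep 2 than in NcoR1ΔHep 3, with a median of 0.76 over all 29. In 12 members, and in 2.17% of all genes, NcoR1ΔHep 2 was more than 2-fold higher on that same scale. With scaling by library totals alone, NcoR1ΔHep 2 held the highest value of 12 members, NcoR1ΔHep 1 of 7 in place of 3, and flox 2 the lowest of 19.

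**Figure D2:**
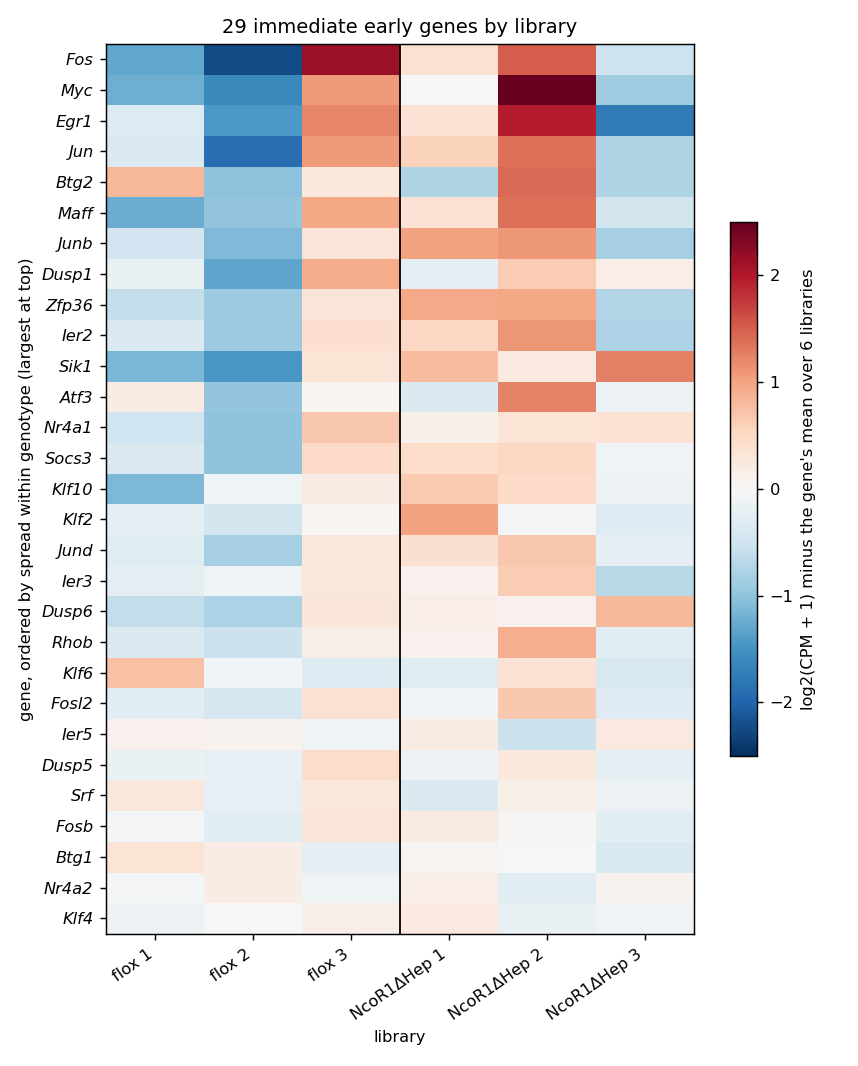
Level of 29 immediate early genes (rows, ordered by their SD within genotype) in 6 libraries (columns, flox left of the line, NcoR1ΔHep right of it), as log2(CPM + 1) minus the gene's mean. Flox 3 and NcoR1ΔHep 2 are red and flox 2 is blue in most of the upper rows. In Sik1 and Dusp6 the highest library is NcoR1ΔHep 3, and in Btg2 flox 1 is above flox 3.

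AP-1 is a dimer of a Fos and a Jun protein, or of 2 Jun proteins, that activates growth and stress genes. Fos was at 1.20, 0.320 and 16.3 FPKM in flox 1 to 3 and at 4.83, 10.6 and 1.98 FPKM in NcoR1ΔHep 1 to 3. These rest on 26 counts in flox 2 (95% Poisson interval 17.0 to 38.1, counting error only) and on 1269 in flox 3. The highest and the lowest library were thus both flox, 48.1-fold apart in CPM, and all NcoR1ΔHep libraries lay between them. The log2 fold change was -0.06 (SE 1.18, edgeR adjusted p = 0.993), and it was 3.0 without flox 3.

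Jun, the main partner of Fos, was at 19.6, 5.46 and 46.8 FPKM in flox and at 36.3, 60.0 and 12.0 FPKM in NcoR1ΔHep. In CPM its highest and lowest libraries differed 8.13-fold within flox and 4.46-fold within NcoR1ΔHep, and the groups overlapped (log2 fold change 0.58, SE 0.74, edgeR adjusted p = 0.940). Junb, a second partner, was at 21.3, 11.4 and 33.6 FPKM in flox and at 58.3, 58.6 and 13.5 FPKM in NcoR1ΔHep. NcoR1ΔHep 1 and 2 were above all flox libraries and NcoR1ΔHep 3 was second lowest, and the log2 fold change was 0.96 (SE 0.54, edgeR adjusted p = 0.931). Jund, the Jun protein most present in resting cells, was at 17.3, 9.92 and 23.1 FPKM in flox and at 27.5, 31.4 and 14.8 FPKM in NcoR1ΔHep (log2 fold change 0.56, SE 0.35, edgeR adjusted p = 0.931). Jund varied least of the Jun genes, 2.20-fold in CPM within flox and 1.89-fold within NcoR1ΔHep.

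In summed FPKM the Jun genes exceeded the Fos genes in every library, by 5.95-fold in flox 3, where Fos was highest, and by 33.1-fold in flox 2, where it was lowest. The ratio was 30.5 in flox 1 and 21.5, 12.6 and 16.3 in NcoR1ΔHep 1 to 3. Fos made up 39.6% of the summed Fos-family FPKM in flox 2 and 93.7% in flox 3. Fosl2, the other Fos gene with more than a few counts, lay between 0.466 and 1.24 FPKM in all libraries. Fosb had at most 20 counts, and Fosl1 had 1 count each in flox 1 and flox 2 and 0 elsewhere, which allows up to 3 counts in those libraries.

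Atf3 and Maff encode further leucine zipper proteins. Maff, a small Maf protein, was at 0.649, 0.704 and 3.75 FPKM in flox and at 2.56, 5.25 and 1.11 FPKM in NcoR1ΔHep, with flox 3 and NcoR1ΔHep 2 highest as for Jun (log2 fold change 0.78, SE 0.77, edgeR adjusted p = 0.931). That value was 0.074 without NcoR1ΔHep 2 and 2.13 without flox 3. Atf3, a stress-induced repressor, ran from 0.210 FPKM in flox 2 to 2.97 FPKM in NcoR1ΔHep 2. It departed from Jun in flox 1, whose 1.31 FPKM was its second highest value.

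**Figure D3:**
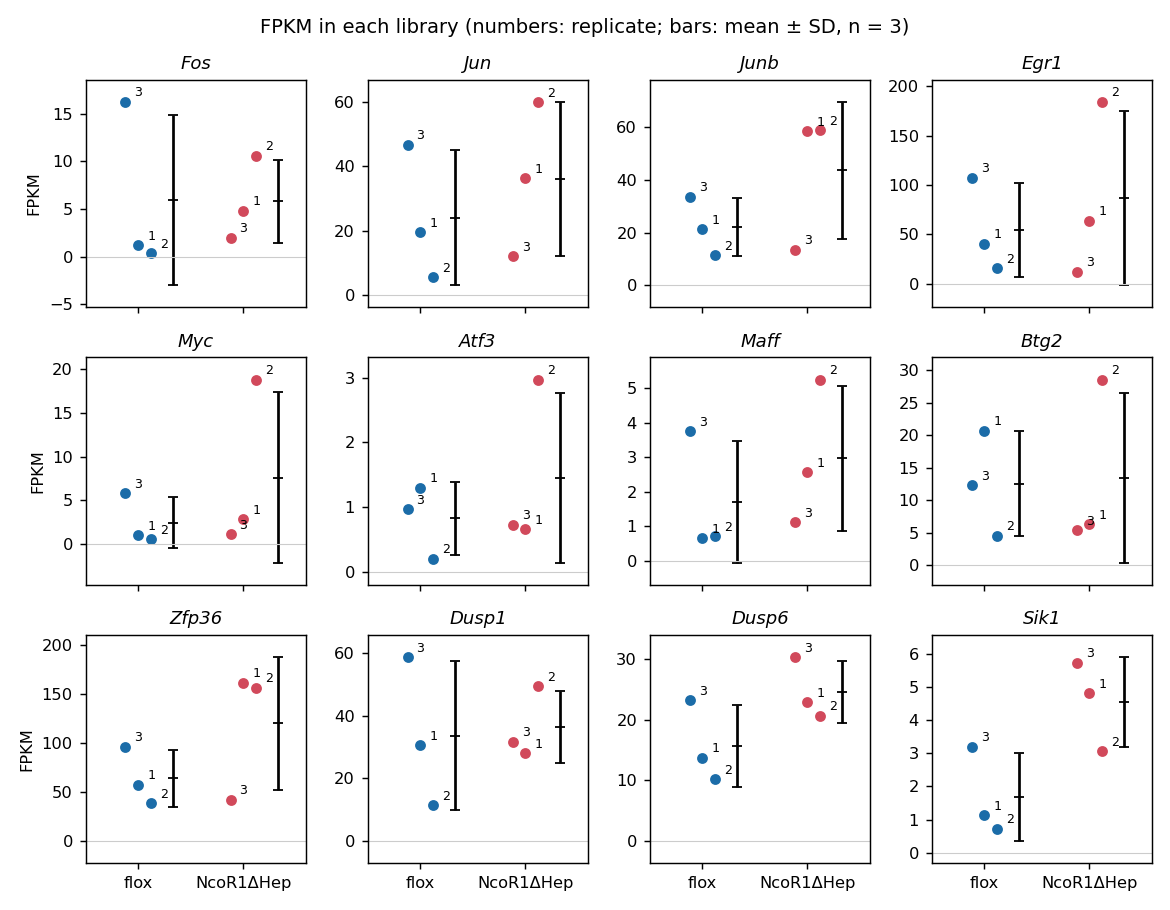
FPKM (vertical axis, own scale per gene) of 12 immediate early genes in 3 flox libraries (blue) and 3 NcoR1ΔHep libraries (red), with the replicate number beside each point and the mean ± SD (n = 3) in black. The groups overlap in every gene, and Fos, Jun, Egr1, Myc and Maff have flox 3 and NcoR1ΔHep 2 as their highest libraries.

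Egr1, a zinc finger factor induced by ERK signalling, was the second most abundant member by mean FPKM. It was at 40.4, 15.9 and 107 FPKM in flox and at 63.8, 184 and 12.0 FPKM in NcoR1ΔHep. Both the highest and the lowest value were in NcoR1ΔHep, 13.7-fold apart in CPM. The log2 fold change was 0.65 (SE 0.91, edgeR adjusted p = 0.949) and it was -0.58 without NcoR1ΔHep 2. Egr2 and Egr3, its relatives, had at most 16 and 12 counts.

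Myc, a driver of cell growth, was at 0.977, 0.531 and 5.77 FPKM in flox and at 2.80, 18.8 and 1.09 FPKM in NcoR1ΔHep. NcoR1ΔHep 2 was 15.3-fold above NcoR1ΔHep 3, and flox 3 was 10.3-fold above flox 2, both in CPM. It had the largest log2 fold change of the members, 1.62 (SE 1.13, edgeR adjusted p = 0.931), and that value was -0.35 without NcoR1ΔHep 2 and 3.36 without flox 3.

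The KLF genes did not move as a family. Klf10, which transforming growth factor beta and the clock induce, was at 6.84, 11.8 and 15.5 FPKM in flox and at 23.2, 19.4 and 11.2 FPKM in NcoR1ΔHep (log2 fold change 0.63, SE 0.37, edgeR adjusted p = 0.931). Unlike most members it was lowest in flox 1. Klf2, which shear stress induces in endothelial cells, was at 2.91, 2.03 and 3.26 FPKM in flox and at 7.44, 3.07 and 2.20 FPKM in NcoR1ΔHep, so that NcoR1ΔHep 1 alone was high. Its log2 fold change of 0.62 (SE 0.42, edgeR adjusted p = 0.931) was 0.03 without that library. Klf6 ran from 1.28 to 3.75 FPKM with its highest value in flox 1, and Klf4 stayed between 0.0603 and 0.138 FPKM.

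Beside Klf2, the 15 markers of sinusoidal endothelial cells summed to 281 to 605 CPM in flox and 198 to 375 in NcoR1ΔHep, and 14 of the 15 had a lower level in NcoR1ΔHep (median log2 fold change -0.62, none called), all of them detected. They were highest in flox 1, where Klf2 was not. Their part in the level of Klf2 was not tested, and in bulk tissue fewer cells of a type and less RNA per cell cannot be told apart.

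The NR4A genes, orphan nuclear receptors that glucagon induces in liver, were scarce. Nr4a1 lay between 0.0507 and 0.602 FPKM, with flox 2 lowest and flox 3 highest, and between 0.375 and 0.450 FPKM in NcoR1ΔHep. Nr4a2 and Nr4a3 had at most 19 and 8 counts.

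Sik1, a kinase that cAMP signalling induces and that restrains CREB coactivators, had the smallest unadjusted edgeR p of the members (0.0275). It was at 1.13, 0.725 and 3.20 FPKM in flox and at 4.81, 3.06 and 5.73 FPKM in NcoR1ΔHep. The groups overlapped by a single pair, flox 3 and NcoR1ΔHep 2, and its highest library was NcoR1ΔHep 3, where most members were low. The log2 fold change was 1.46 (SE 0.54, edgeR adjusted p = 0.931), and it stayed between 1.11 and 2.36 when any 1 library was left out. Of 12 tested CREB target genes, 9 had a higher level in NcoR1ΔHep (median 0.25), against 53.5% of all genes, and none was called. Nfil3 (log2 fold change -1.05, SE 0.47) and Crem (-0.77, SE 0.38) were among those with a lower level. The groups did not overlap in 2 of the 12, Tat and Fam13a, against 8.82% of all tested genes. Tat, a tyrosine-degrading enzyme that is also on the hepatocyte marker list, was at 217, 205 and 291 FPKM in flox and at 436, 326 and 413 FPKM in NcoR1ΔHep (log2 fold change 0.74, SE 0.27, edgeR adjusted p = 0.931). Pck1, the gluconeogenic enzyme, overlapped, at 572 to 817 FPKM in flox and 687 to 796 FPKM in NcoR1ΔHep.

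The dual-specificity phosphatases remove phosphate from MAP kinases. Dusp6, specific for ERK, was at 13.7, 10.2 and 23.2 FPKM in flox and at 22.9, 20.7 and 30.4 FPKM in NcoR1ΔHep. Flox 3 lay above NcoR1ΔHep 1 and 2, and the other flox libraries lay below all of NcoR1ΔHep. Its log2 fold change was 0.69 (SE 0.35, edgeR adjusted p = 0.931), and NcoR1ΔHep 3 was highest, as for Sik1. Dusp1 was at 30.6, 11.4 and 58.7 FPKM in flox and at 28.1, 49.5 and 31.7 FPKM in NcoR1ΔHep, with the 2 extremes both in flox (log2 fold change 0.15, SE 0.52, edgeR adjusted p = 0.982). Dusp5 was at most 0.551 FPKM. Of 15 other tested MAP kinase feedback genes 7 had a higher and 8 a lower level in NcoR1ΔHep (median -0.15), and of 42 kinases and factors upstream 18 had a higher and 24 a lower level (median -0.06), none called in either list.

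Zfp36, whose protein destroys AU-rich messenger RNAs, was the most abundant member. It was at 57.3, 38.7 and 96.3 FPKM in flox and at 162, 157 and 42.2 FPKM in NcoR1ΔHep. As for Junb, NcoR1ΔHep 1 and 2 lay above all flox libraries and NcoR1ΔHep 3 near the lowest (log2 fold change 0.89, SE 0.49, edgeR adjusted p = 0.931). Btg2, an antiproliferative gene that p53 induces, was at 20.7, 4.58 and 12.3 FPKM in flox and at 6.36, 28.6 and 5.41 FPKM in NcoR1ΔHep. NcoR1ΔHep 1, high in Zfp36, was low in Btg2, whose log2 fold change was 0.16 (SE 0.68, edgeR adjusted p = 0.986). Btg1 varied little, from 7.44 to 15.2 FPKM.

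Ier2, an early response gene, was at 17.5, 9.89 and 27.2 FPKM in flox and at 31.4, 45 and 10.5 FPKM in NcoR1ΔHep, the order seen in Junb (log2 fold change 0.66, SE 0.51, edgeR adjusted p = 0.931). Rhob, a small GTPase, was at 11.9, 8.72 and 15.1 FPKM in flox and at 15.8, 26.4 and 10.3 FPKM in NcoR1ΔHep (log2 fold change 0.57, SE 0.34, edgeR adjusted p = 0.931). Without NcoR1ΔHep 2 the log2 fold changes were 0.18 for Ier2 and 0.15 for Rhob, and without flox 3 they were 1.11 and 0.80. Ier3 ran from 0.147 to 1.82 FPKM and Ier5 from 0.623 to 1.34 FPKM, and NcoR1ΔHep 2 was highest for the first and lowest for the second. Socs3, the feedback inhibitor of IL-6 signalling, ran from 0.599 FPKM in flox 2 to 2.61 FPKM in NcoR1ΔHep 1.

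Srf itself, which switches on many of the others, was among the steadiest members, between 0.832 and 1.48 FPKM (log2 fold change -0.28, SE 0.27, edgeR adjusted p = 0.931). The 3 genes whose CArG boxes are printed had no common direction: 0.89 for Zfp36, -0.20 for Dusp5 and -0.28 for Srf. Those with TGACGTCA were at 0.15 (Dusp1), 0.16 (Btg2) and 0.78 (Maff), none called. Of 16 cytoskeletal targets of SRF, 5 had a higher and 11 a lower level in NcoR1ΔHep, with a median of -0.14.

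**Figure D4:**
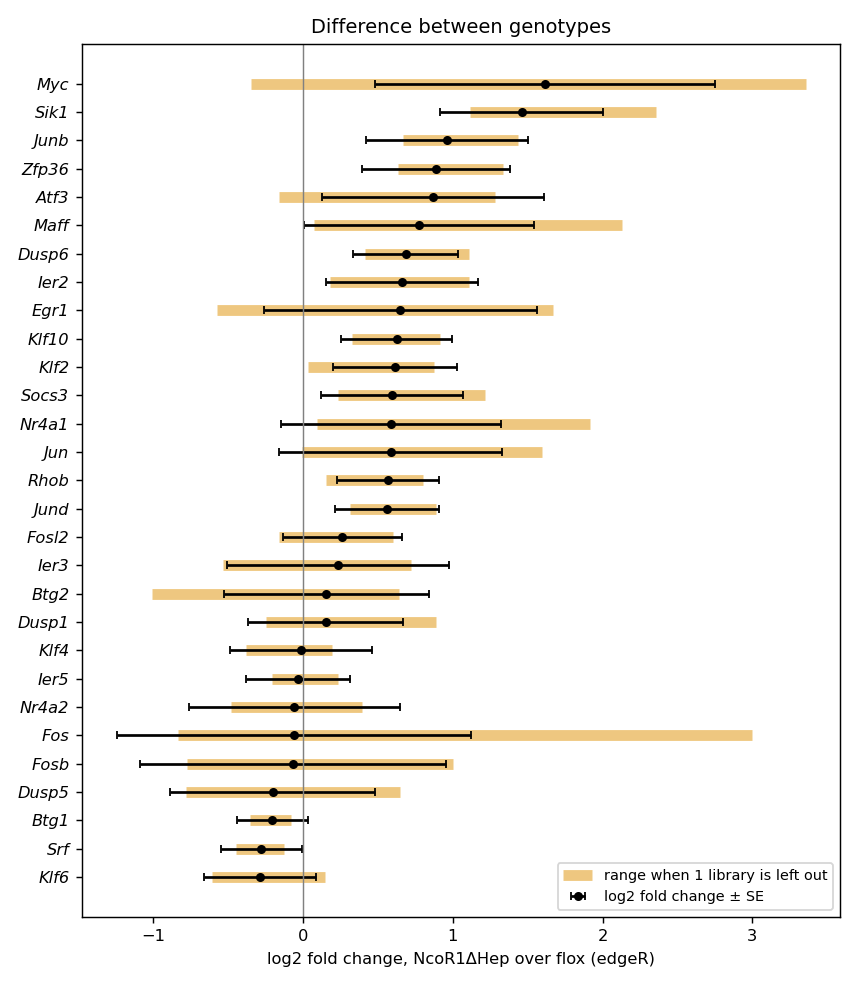
Log2 fold change of NcoR1ΔHep over flox (horizontal axis, edgeR) with its SE for 29 immediate early genes, and, as yellow bars, its range when each library is left out in turn. Sik1, Junb, Zfp36 and Dusp6 stay above 0 throughout, while the bars of Myc, Egr1, Btg2 and Fos cross 0.

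Early-response genes outside the list were high and low in the same libraries, with flox 1 and NcoR1ΔHep 3 in the opposite order. The mean level of 31 others, as a deviation in log2(CPM + 1) from each gene's mean, was -0.24, -0.58 and 0.41 in flox 1 to 3 and 0.15, 0.57 and -0.30 in NcoR1ΔHep 1 to 3. For the 29 members it was -0.31, -0.74 and 0.43, and 0.23, 0.68 and -0.28. Of these 31 genes, 22 had a higher level in NcoR1ΔHep (median log2 fold change 0.29), and none was called. In TMM-scaled CPM the groups did not overlap in 2 (6.45%, against 8.82% of all tested genes), Sgk1 and Hbegf. Hbegf was scarce and its groups overlapped in FPKM, at 0.322 in flox 1 against 0.315 in NcoR1ΔHep 1 and 0.271 in NcoR1ΔHep 3. Sgk1, a kinase induced by glucocorticoids, was at 4.15, 3.61 and 5.44 FPKM in flox and at 7.35, 6.63 and 11 FPKM in NcoR1ΔHep (log2 fold change 0.96, SE 0.30, edgeR adjusted p = 0.931).

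Other gene groups moved with the members between libraries. Genes of fasting and feeding deviated by -0.26, -0.42 and 0.26 in flox and by 0.40, 0.38 and -0.36 in NcoR1ΔHep, the same sign as the members in all 6 libraries. CREB targets also had that sign in all 6, at -0.31, -0.15 and 0.13 in flox and 0.28, 0.29 and -0.25 in NcoR1ΔHep. The lists are not fully separate, as Crem is also among the other early-response genes and Nfil3 also among the clock genes. Genes of IL-6 and STAT3 signalling were high in flox 3 and NcoR1ΔHep 2 alone (1.18 and 1.12), and clock genes low in flox 1 and flox 2 alone (-0.85 and -0.43). Dbp, a clock output gene, had 0.948 FPKM in flox 1, 3.76 FPKM in flox 2 and between 37.6 and 92.6 FPKM elsewhere.

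Kupffer cell markers (11) summed to 409 to 597 CPM in flox and 269 to 608 in NcoR1ΔHep, with flox 3 and NcoR1ΔHep 2 highest in their groups, and all were detected. Of these 11, 2 had a higher and 9 a lower level in NcoR1ΔHep, where 53.5% of all genes were higher (median log2 fold change -0.34, none called). Neutrophil markers (8) summed to 2.37 to 13.1 and 4.67 to 6.90, highest in flox 3 and, within its group, in NcoR1ΔHep 2, with Ly6g at 3 counts or fewer in every library. Cholangiocyte markers (6) summed to 168 CPM in NcoR1ΔHep 2 and to 39.9 to 57.6 CPM elsewhere, all detected. Stellate cell markers (10), also all detected, summed to 405 to 476 CPM in flox and 490 to 610 in NcoR1ΔHep, highest in NcoR1ΔHep 2. All 10 had a higher level in NcoR1ΔHep, against 53.5% of all genes (median log2 fold change 0.13, none called). The groups were separated in 0 of the 10 stellate markers, against 8.82% of all tested genes. Their mean deviation in log2(CPM + 1) also overlapped, at 0.17 in flox 1 against -0.095 in NcoR1ΔHep 1 and -0.099 in NcoR1ΔHep 3. The mitochondrial share was lowest in the same libraries, at 4.50% in flox 3 and 5.77% in NcoR1ΔHep 2, and highest in flox 2 (8.80%) and NcoR1ΔHep 3 (10.4%) of their groups. The part of feeding, time of day, inflammation, cell makeup and RNA quality in the spread of the members was not tested.

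**Figure D5:**
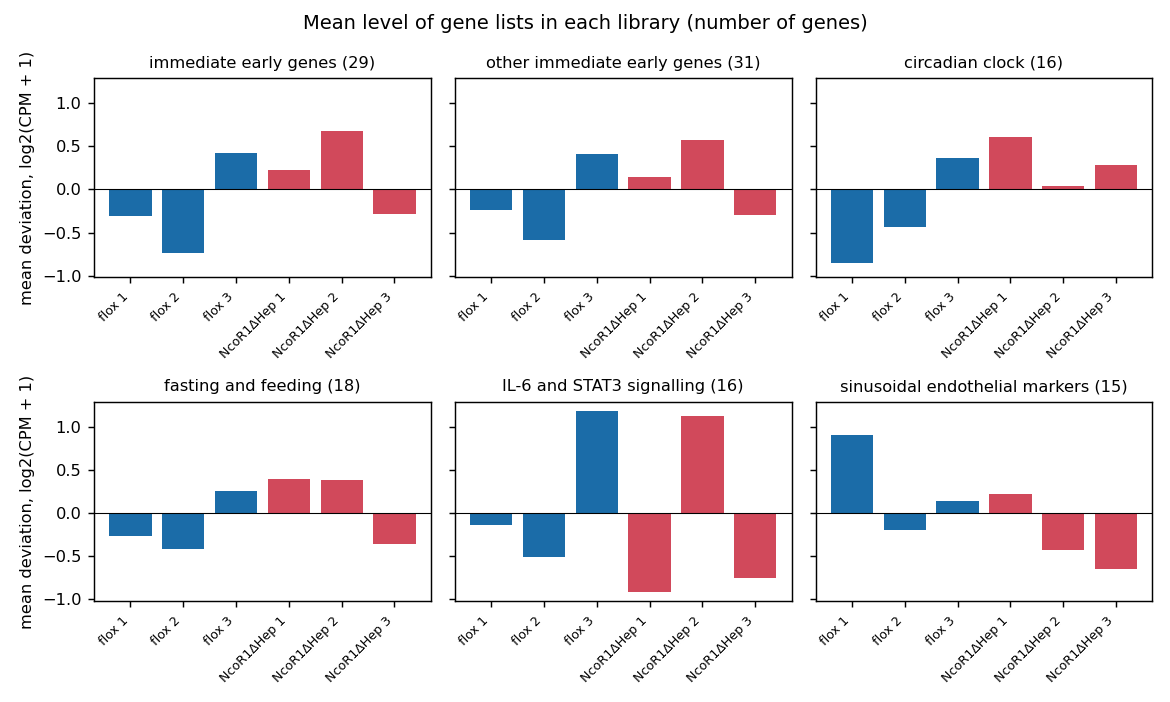
Mean deviation of 6 gene lists (vertical axis, log2(CPM + 1) minus each gene's mean) in 6 libraries (flox blue, NcoR1ΔHep red), with the number of genes in each title. The fasting and feeding genes have the sign of the immediate early genes in every library, the clock genes are low in flox 1 and flox 2, and the endothelial markers are highest in flox 1.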

How the data were processed

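Whole-number counts per gene symbol were deposited by the authors, with no normalization, and FPKM values of the same genes. Per the file headers each column is 1 library. The gene length implied by FPKM, count and library total was the same in every library within 0.01 bp for 100% of 12656 genes checked (at least 20 counts in 2 libraries). Per the submitters' processing notes the builds are GRCm38, mm10 and hg38, with no role given. Which aligner or counter was used, and whether by strand, is not given in the sources used here.

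Counts were filtered with filterByExpr (minimum count 10, minimum total 15), scaled by TMM and tested two-sided in R 4.3.3 by the quasi-likelihood F-test of edgeR 4.0.16 (Benjamini-Hochberg adjusted over 13205 genes, threshold 0.05). SEs derive from the F statistic. CPM values are TMM-scaled, and levels compared between genes are FPKM. The scripts were tested on simulated data. Alternatives were DESeq2 1.42.0, other scalings and filters, a robust fit, limma-voom and limma on log2(FPKM + 1) (limma 3.58.1), the replicate number as a term, and leaving out each library.

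The members and all gene lists were chosen with earlier results of these data known. Values per library are given for the 10 members with the smallest p, those with the 8 largest SDs within genotype and any without overlap. Those of other genes named (Atf3, Klf6, Btg1, Fosl2, Nr4a1, Srf, Socs3, Dbp, Tat, Pck1 and Hbegf among them) were chosen after their values were seen.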

Additional observations from a re-analysis of the deposited data

How the results depend on the processing

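No member was called under any alternative run, and 15 to 25 members had a higher level in NcoR1ΔHep (of 24 to 33 tested, the 15 without NcoR1ΔHep 2). Their median log2 fold change ran from 0.07 (without NcoR1ΔHep 2) to 0.91 (without flox 3). DESeq2 called 5 genes, none of them members, where edgeR called 0 (443 at an unadjusted p under 0.05). DESeq2 had 612. The replicate numbers did not pair the libraries (correlations of deviations between same-numbered libraries 0.02, -0.38 and -0.52, with flox 2 closest to NcoR1ΔHep 3 at 0.63). With the replicate block 0 genes and 0 members were called and the median was 0.51.

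The number of members without overlap, 0, ran from 0 to 10 when a library was left out, an alternative chosen after seeing the data. It was 10 without flox 3 (34.5%, against 26% of all genes), 5 without NcoR1ΔHep 3 (against 24.1%) and 2 without NcoR1ΔHep 2 (against 22.1%). It was 1 without flox 2 (against 17.1%), 0 without flox 1 (against 11.7%) and 0 without NcoR1ΔHep 1 (against 15.3%). Fewer libraries separate more often by construction.

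Of 29 members, 14 kept their sign in every alternative, 12 of them above 0. The others changed sign when a library was left out, with these ranges: Fos -0.84 to 3.0, Fosb -0.78 to 1.0, Fosl2 -0.16 to 0.60, Jun -0.0083 to 1.59, Egr1 -0.58 to 1.67, Atf3 -0.16 to 1.28, Ier3 -0.54 to 0.72, Ier5 -0.21 to 0.23, Klf4 -0.38 to 0.20, Klf6 -0.61 to 0.15, Myc -0.35 to 3.36, Nr4a2 -0.48 to 0.39, Dusp1 -0.25 to 0.89, Dusp5 -0.78 to 0.65 and Btg2 -1.01 to 0.64. With limma-voom the sign changed for Fos (1.39), Fosb (0.073), Ier3 (-0.18) and Btg2 (-0.059), and with the replicate block for Fos (1.63), Fosb (0.19), Ier3 (-0.042) and Btg2 (-0.22). With limma on log2(FPKM + 1) it changed for Fos (0.67 where 3 libraries had to reach 0.5 FPKM, 0.67 unfiltered) and Btg2 (-0.069 and -0.069). With a pseudocount of 0.1 it changed for Fos (1.21), Ier3 (-0.15) and Btg2 (-0.080), and with upper-quartile factors for Klf4 (0.033). The cause was not tested. Depth limits Fosl1, Egr2, Egr3 and Nr4a3, which were not tested, and Fosb, Nr4a2, Klf4 and Dusp5, with at most 39 counts in any library.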
